A study of Mus musculus with 6 samples.

Results

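The genes described here encode the dystrophin-glycoprotein complex and the caveolins of muscle and many other cells: dystrophin (Dmd), utrophin (Utrn), dystroglycan (Dag1), α-, β- and δ-sarcoglycan (Sgca, Sgcb, Sgcd), caveolin-1 (Cav1) and caveolin-3 (Cav3). All 8 genes were on the array, and their RefSeq accessions picked out 13 probes of 39429 non-control probes, each printed once. The measurements came from C2C12, an established mouse myoblast line, hybridised to 1-colour Agilent mouse mRNA arrays. Of the 6 arrays, 3 held RNA of cells in which Meg3, an imprinted long non-coding RNA, was targeted by transfected siRNA (siRNA-MEG3), and 3 held RNA of cells given a negative control siRNA (siRNA-NC). What both groups share is growth in DMEM with 10% fetal bovine serum, 70 to 80% confluence when lipofected, and an siRNA amount written as "20 um" in the labels. How long the cells were kept before lysis is not stated, and no untransfected cells were analysed here.

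Dystrophin ties the actin cytoskeleton of a muscle fibre to dystroglycan in the sarcolemma, and dystroglycan binds laminin outside the cell, so that the complex carries force across the membrane. The sarcoglycans form a subcomplex beside dystroglycan, and utrophin is a dystrophin relative that holds the same place in immature muscle and at the neuromuscular junction. Caveolins shape small membrane pits called caveolae, with caveolin-3 the form of striated muscle and caveolin-1 that of most other cells. Defects of dystrophin, the sarcoglycans or caveolin-3 cause muscular dystrophies.

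Array depth was judged by signal above background. Between 62.8 and 69.3% of spots were well above background on the siRNA-MEG3 arrays, against 70.1 to 75.2% on the siRNA-NC arrays, and no spot was saturated. Single-spot scatter was common to siRNA-MEG3 arrays 1 and 3 (r = 0.979 over probes printed 10 times), as repeat scans of 1 hybridisation would, and siRNA-NC arrays 1 and 3 agreed within spot noise (between-probe to within-probe variance ratio 1.03, against 172.8 for siRNA-NC arrays 1 and 2). Each pair was averaged, which left 2 samples per group, so the p-values rest on sample-to-sample spread that may be technical. The siRNA-NC arrays came from 1 scan and the siRNA-MEG3 arrays from 2 others, and for every value given here group and scan cannot be told apart. Blocks of spots dark relative to siRNA-NC covered 21.6, 5.95 and 20.5% of siRNA-MEG3 arrays 1 to 3. The 3 Meg3 probes read between 2.97 and 13.6 on the siRNA-MEG3 arrays, none well above background, and between 3.17 and 25.5 on the siRNA-NC arrays, where 1 probe was well above background on 1 array. The arrays therefore do not check the knockdown.

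The promoters of the caveolin genes are shown because Cav3 was the one member past the test and Cav1 is its relative within the set. RefSeq windows on GRCm38.p6 reach from 250 bases before to 50 bases after an annotated start, and 11 windows covered all 8 genes. Capitals mark each CANNTG, the E-box core that myogenic basic helix-loop-helix factors and many others can bind.
Cav3, chr6:112459255-112459554, plus strand: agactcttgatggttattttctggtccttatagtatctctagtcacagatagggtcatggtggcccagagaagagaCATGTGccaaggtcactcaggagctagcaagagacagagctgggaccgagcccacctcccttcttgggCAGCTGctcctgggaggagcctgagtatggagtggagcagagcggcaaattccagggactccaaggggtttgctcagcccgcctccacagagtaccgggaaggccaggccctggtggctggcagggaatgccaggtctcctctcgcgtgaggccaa
Cav1, first start, chr6:17306085-17306384, plus strand: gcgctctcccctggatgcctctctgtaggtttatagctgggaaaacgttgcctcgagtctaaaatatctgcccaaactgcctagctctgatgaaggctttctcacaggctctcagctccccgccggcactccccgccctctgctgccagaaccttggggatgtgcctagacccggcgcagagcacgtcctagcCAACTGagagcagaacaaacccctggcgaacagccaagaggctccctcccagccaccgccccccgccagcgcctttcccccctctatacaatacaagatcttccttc
Cav1, second start, chr6:17307390-17307689, plus strand: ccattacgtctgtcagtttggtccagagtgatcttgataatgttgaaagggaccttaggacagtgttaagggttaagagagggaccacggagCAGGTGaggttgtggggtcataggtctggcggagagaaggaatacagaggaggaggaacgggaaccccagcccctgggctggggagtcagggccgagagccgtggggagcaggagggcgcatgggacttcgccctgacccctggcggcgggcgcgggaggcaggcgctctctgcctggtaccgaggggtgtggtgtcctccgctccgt
The Cav3 window held 2 E-box cores and each Cav1 window held 1. CANNTG was present in 9 of the 11 windows of the set and in 72.3% of all 32851 RefSeq promoter windows. The narrower form CAGCTG, one of the CANNTG sequences and its own reverse complement, occurred in 1 of the 11 windows, that of Cav3 at position -106 (the annotated start counted as 0), and in 16.3% of all windows. The MCAT core CATTCC, searched on both strands, lay in 2 of the 11 windows, at position 18 in Cav3 and -133 in Sgcd, and in 14.7% of all windows. The GC-box core GGGCGG, also searched on both strands, lay in 6 of the 11 windows, Cav3 not among them, and in 35.7% of all windows. These are letter matches only, and binding was not measured.

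The Cav3 probe read far higher in cells given siRNA-MEG3 than in cells given siRNA-NC. It was well above background on only 1 of the 3 siRNA-NC arrays and entered the test through the siRNA-MEG3 arrays. No other member passed the test in either direction. In bulk RNA, more cells that express a gene and more RNA per cell cannot be told apart. Of the 13 probes, 10 probes of 7 genes were bright enough to test, and all 3 Dmd probes were too dim. Cav3 was the 1 probe called higher, 0 were called lower and 9 were not called, at an adjusted p of 0.05 from limma over all 26345 probes tested. At an unadjusted p of 0.05, 3 member probes passed, Cav3 and both Sgcd probes. Over all tested probes 263 were higher (0.998%) and 98 were lower (0.372%), 1.37% in all, and 5040 passed at an unadjusted p of 0.05. These overall counts rested on single arrays: they were 1370 higher and 1768 lower without siRNA-MEG3 array 2, 0 and 0 without siRNA-NC array 2, and 206 and 48 without siRNA-NC array 1. The member probes had a median log2 fold change of 0.11, beside 0.05 over all tested probes, with 7 positive and 3 negative. The arrays of the 2 groups did not overlap for 5 of the 10 member probes, beside 47.2% of the 26173 tested probes with a value on all arrays.

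**Figure D1:**
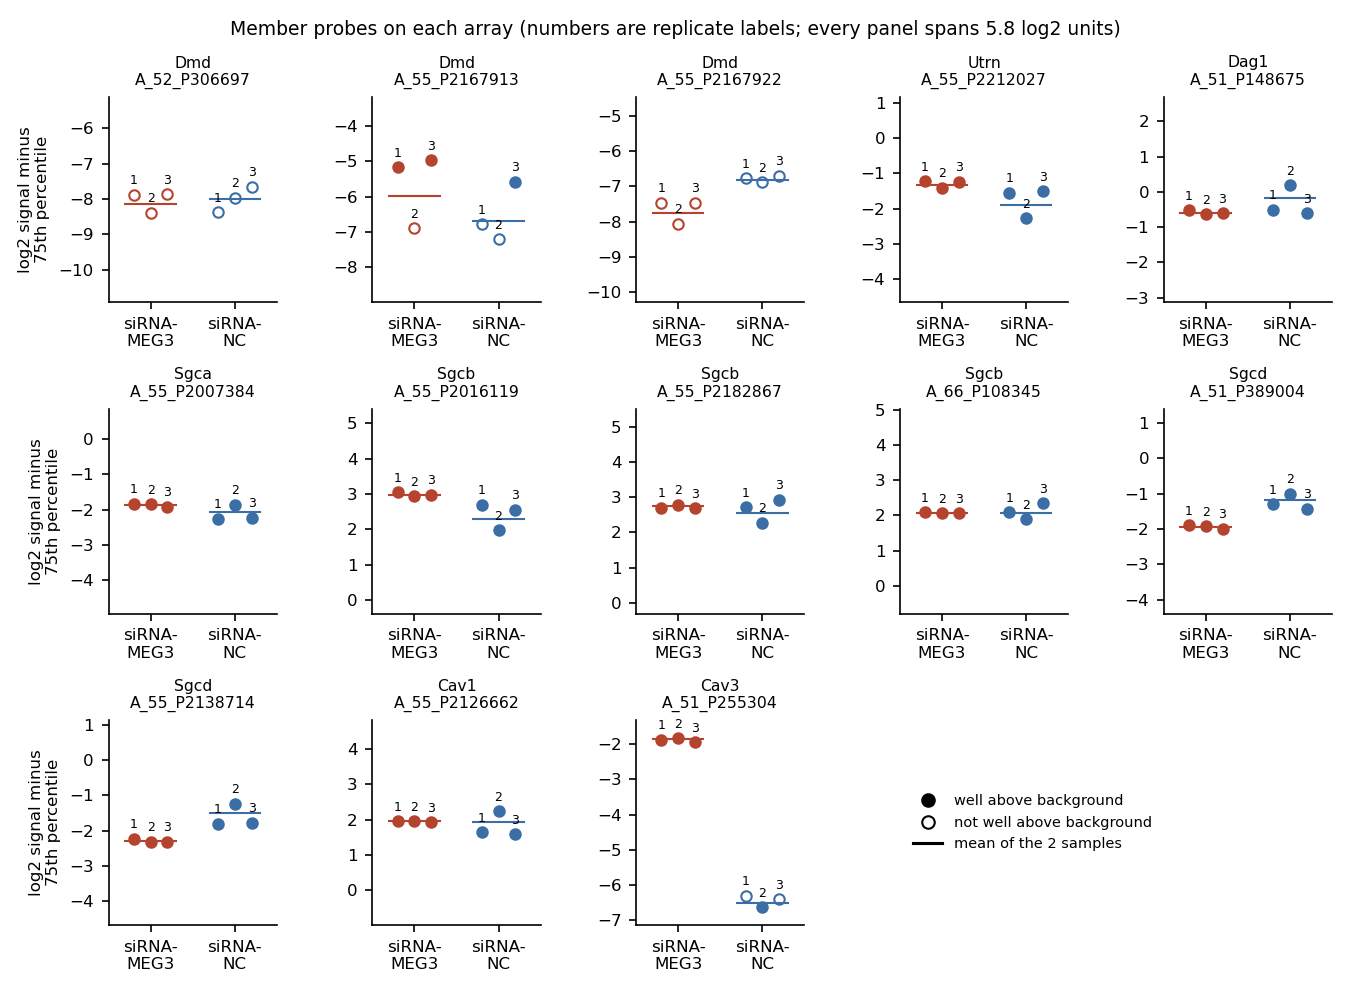
Scaled log2 signal of each of the 13 member probes on every array, siRNA-MEG3 left and siRNA-NC right, as log2 processed signal minus the array's 75th percentile. Filled points were well above background and open ones were not, numbers are replicate labels and bars are means of the 2 samples per group. The Cav3 panel alone has a wide gap between the groups, and siRNA-NC array 2 often stands apart from siRNA-NC arrays 1 and 3.

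**Figure D2:**
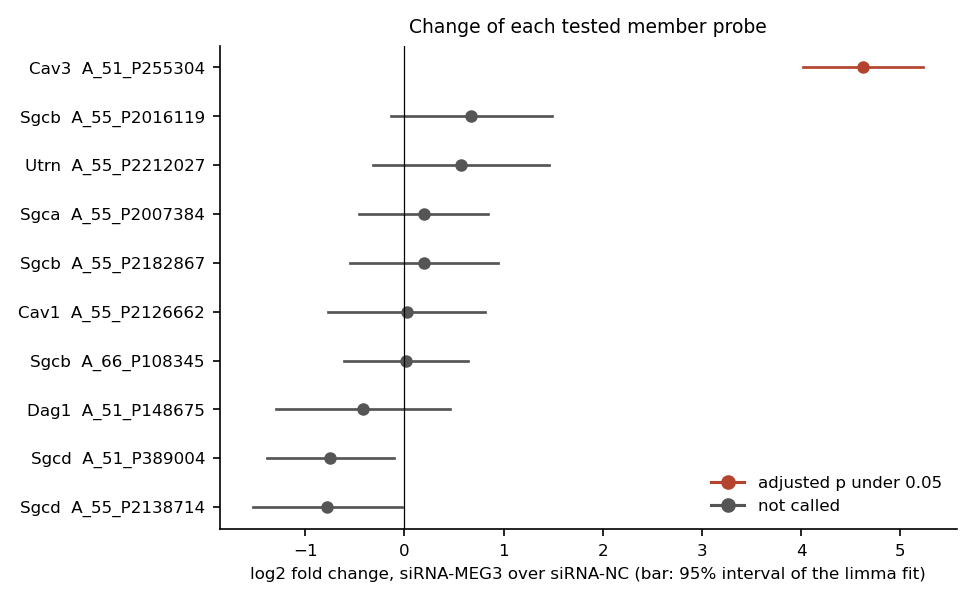
Log2 fold change, siRNA-MEG3 over siRNA-NC, of each of the 10 tested member probes, with the 95% interval of the limma fit (2 samples per group) as a bar. Cav3 lies at 4.62, and the other 9 lie between -0.78 and 0.67, none with an adjusted p under 0.05.

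Dystrophin transcripts were at or near background in both groups. Probe A_55_P2167913 for Dmd (chromosome X, NM_007868) gave processed signals of 33.5, 10.7 and 37.4 on siRNA-MEG3 arrays 1 to 3, against 11.7, 15.4 and 25.6 on siRNA-NC arrays 1 to 3. It was well above background on siRNA-MEG3 arrays 1 and 3, which count as 1 sample, and on siRNA-NC array 3. Probe A_52_P306697 gave 5.09, 3.80 and 5.00 with siRNA-MEG3 and 3.86, 9.11 and 6.07 with siRNA-NC, and was in a dark patch on siRNA-MEG3 array 2. Probe A_55_P2167922 gave 6.82, 4.78 and 6.64 with siRNA-MEG3 and 11.8, 19.2 and 11.7 with siRNA-NC, and was in a dark patch on all 3 siRNA-MEG3 arrays. Both of these were not well above background on any array, so no fold change is given for them. For A_55_P2167913 the group ranges overlapped. With siRNA-MEG3 array 2 left out, that probe became testable and was called higher (limma adjusted p = 0.0266), but through a lone siRNA-MEG3 sample and against siRNA-NC readings of which 2 of 3 were not well above background, so no size is given. With all arrays and no filter on dim probes it was not called (limma adjusted p = 0.703).

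Utrophin (chromosome 10, NM_011682), the autosomal relative of dystrophin, was well measured in every array. Its probe read 511, 479 and 493 with siRNA-MEG3 and 440, 471 and 430 with siRNA-NC. Scaled to each array's 75th percentile, which was 1199, 1271 and 1168 on the siRNA-MEG3 arrays and 1284, 2266 and 1220 on the siRNA-NC arrays, this gave log2 levels of -1.23, -1.41 and -1.24 with siRNA-MEG3 and -1.54, -2.27 and -1.51 with siRNA-NC. Every siRNA-MEG3 array was above every siRNA-NC array, and siRNA-NC array 2 was the lowest. The log2 fold change was 0.57 ± 0.33 (SE, n = 2 samples per group, 95% interval -0.31 to 1.46), and it did not pass the threshold (limma adjusted p = 0.435). The gap between the 2 siRNA-NC samples, 0.74, exceeded the difference between groups. Against siRNA-NC arrays 1 and 3 the siRNA-MEG3 level was higher by 0.20, and against siRNA-NC array 2 by 0.94.

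Dystroglycan (Dag1, chromosome 9, NM_010017), the laminin receptor of the complex, overlapped between groups. The probe read 833, 819 and 771 with siRNA-MEG3 and 903, 2583 and 806 with siRNA-NC, which became scaled log2 levels of -0.52, -0.63 and -0.60 against -0.51, 0.19 and -0.60. siRNA-NC array 2 stood above the other 5 arrays, which lay within a narrow band. The log2 fold change was -0.42 ± 0.32 (SE, 95% interval -1.29 to 0.46; limma adjusted p = 0.564). Without siRNA-NC array 2 it was -0.046.

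The estimates for Sgca, Sgcb and Sgcd ran in different directions, and none passed the test. Sgca (chromosome 11, NM_009161), which encodes the sarcoglycan found almost wholly in striated muscle, read 338, 353 and 310 with siRNA-MEG3 and 268, 622 and 260 with siRNA-NC. On the scaled log2 scale these were -1.83, -1.85 and -1.92 against -2.26, -1.86 and -2.23, so siRNA-NC array 2 overlapped the siRNA-MEG3 arrays while siRNA-NC arrays 1 and 3 were lower. The log2 fold change was 0.20 ± 0.24 (SE, 95% interval -0.45 to 0.85; limma adjusted p = 0.730), and 0.39 without siRNA-NC array 2.

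Sgcb (chromosome 5, NM_011890), the broadly expressed core of the subcomplex, had 3 probes with unlike estimates. Probe A_55_P2016119 read 9896, 9786 and 9209 with siRNA-MEG3 and 8340, 8950 and 7181 with siRNA-NC, and its scaled levels did not overlap between groups. Its log2 fold change was 0.67 ± 0.30 (SE, 95% interval -0.14 to 1.48; limma adjusted p = 0.327), and 0.35 without siRNA-NC array 2. The other two overlapped between groups. Probe A_55_P2182867 read 7823, 8770 and 7562 against 8421, 10964 and 9313 for siRNA-MEG3 and siRNA-NC, with a log2 fold change of 0.19 ± 0.28 (SE, limma adjusted p = 0.770). Probe A_66_P108345 read 5138, 5291 and 4867 with siRNA-MEG3 and 5491, 8420 and 6202 with siRNA-NC, with a log2 fold change of 0.01 ± 0.23 (SE, 95% interval -0.61 to 0.64; limma adjusted p = 0.986). The spread of 0.66 across probes of this 1 gene was about as large as the estimate of the highest, and the lower pair of estimates turned negative under some other settings.

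δ-sarcoglycan (Sgcd, chromosome 11, NM_011891) read lower with siRNA-MEG3 on both of its probes, without passing the test. Probe A_51_P389004 gave 322, 335 and 294 with siRNA-MEG3 and 522, 1130 and 452 with siRNA-NC, or scaled log2 levels of -1.89, -1.92 and -1.99 against -1.30, -1.0 and -1.43. Probe A_55_P2138714 gave 256, 255 and 235 with siRNA-MEG3 and 367, 960 and 356 with siRNA-NC, or -2.23, -2.31 and -2.31 against -1.81, -1.24 and -1.78. On both probes every siRNA-MEG3 array was below every siRNA-NC array. The log2 fold changes were -0.75 ± 0.24 (SE, 95% interval -1.39 to -0.11; limma adjusted p = 0.215) and -0.78 ± 0.28 (SE, limma adjusted p = 0.250). Without siRNA-NC array 2 they were -0.57 and -0.50. Both probes were called lower when all 6 arrays were counted as 6 samples, at limma adjusted p = 0.0185 and 0.0403, a count that treats near-identical arrays as separate. Normexp background correction on all spots brought them to -0.03 and 0.04, while it moved the median of all tested probes from 0.05 to 0.62. With normexp leaving out spots under a bright speck, the Sgcd values were -0.57 and -0.61.

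Caveolin-1 (Cav1, chromosome 6, NM_001243064) gave no detectable difference. Its probe read 4660, 4940 and 4457 with siRNA-MEG3 and 4025, 10695 and 3660 with siRNA-NC, or scaled log2 levels of 1.96, 1.96 and 1.93 against 1.65, 2.24 and 1.59. The siRNA-MEG3 arrays lay between siRNA-NC array 2 above and siRNA-NC arrays 1 and 3 below. The log2 fold change was 0.02 ± 0.29 (SE, limma adjusted p = 0.977), and the 95% interval of -0.77 to 0.82 leaves room for differences of either sign. Without siRNA-NC array 2 the value was 0.33.

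Caveolin-3 (Cav3, chromosome 6, NM_007617), which builds the caveolae of muscle and is known to be induced as myoblasts differentiate, read 327, 358 and 303 with siRNA-MEG3 and 16.3, 22.8 and 14.4 with siRNA-NC. The scaled log2 levels were -1.88, -1.83 and -1.95 with siRNA-MEG3 and -6.30, -6.63 and -6.41 with siRNA-NC, so the groups were far apart and each was tight. The fitted rise of Cav3 was 24.6-fold. Raising siRNA-NC readings, where they lay below it, to the lowest signal well above background on that array also gave 24.6-fold. The siRNA-NC mean already lay at that level (-6.49 before and after), so this step could not move the size and does not check it. The fit gave a log2 fold change of 4.62 ± 0.23 (SE, n = 2 samples per group, 95% interval 4.01 to 5.23; limma adjusted p = 0.0188). That interval does not cover the choice of background correction, and both normexp values below lie under it. The probe was well above background on all 3 siRNA-MEG3 arrays but on only 1 of the 3 siRNA-NC arrays, array 2, so it passed the filter through the siRNA-MEG3 arrays and the size of the change depends on how background is removed. With normexp correction, leaving out spots under a bright speck, the log2 fold change was 2.63 (limma adjusted p = 0.0242), and with normexp on all spots it was 3.21 and missed the threshold (limma adjusted p = 0.553). It was also not called without siRNA-NC array 2 (4.48, limma adjusted p = 0.124), where 1 siRNA-NC sample remains, or with no filter on dim probes (4.62, limma adjusted p = 0.0529). Across 20 alternative settings the log2 fold change lay between 2.63 and 4.78, and Cav3 was called higher in 17. These settings reuse the same arrays, and some count near-identical arrays as separate or leave 1 sample in a group, so they are not independent checks.

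**Figure D3:**
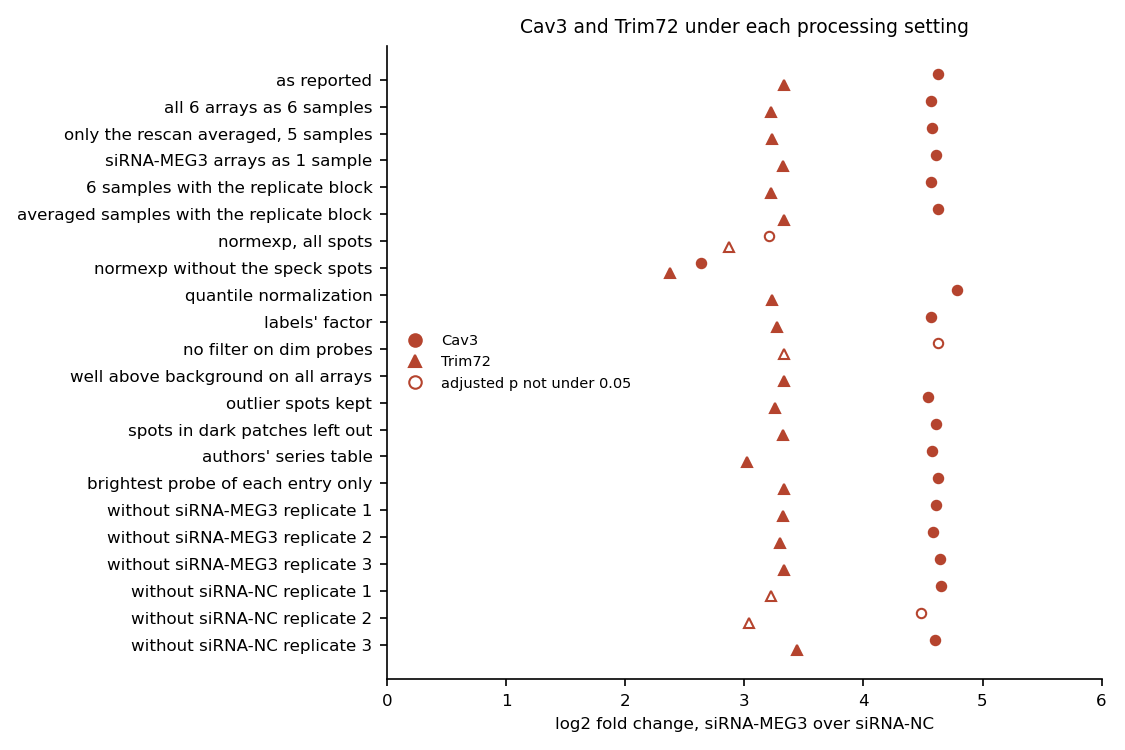
Log2 fold change, siRNA-MEG3 over siRNA-NC, of Cav3 (circles) and Trim72 (triangles) as reported and under each alternative setting, with open symbols where the adjusted p was not under 0.05. All values are positive, and Cav3 is lowest, at 2.63, under normexp without the speck spots. Cav3 has no value where a probe had to be well above background on all arrays.

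The difference between the 2 caveolin probes within a sample restates the Cav3 change, since the Cav1 log2 fold change was 0.02. Log2 Cav3 minus log2 Cav1 was -3.86 in siRNA-MEG3 arrays 1 and 3 and -3.79 in siRNA-MEG3 array 2, against -7.97 in siRNA-NC arrays 1 and 3 and -8.87 in siRNA-NC array 2. The siRNA-NC values rest on Cav3 readings that were not well above background on arrays 1 and 3. An exact permutation test (2-sided) over 4 samples cannot go below p = 0.333, the value obtained, so these are given as values. The probes differ in sequence, so the values show unequal change and not which caveolin was more abundant.

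Cox8b, a muscle form of a cytochrome c oxidase subunit, was the named gene whose arrays lay nearest to those of Cav3, with a log2 fold change of 4.54. Likeness was the root-mean-square difference between centred log2 levels over the 6 arrays, among 15366 named genes, and was 0.0932 for Cox8b. Chil1 and Hoxb4 came next, but they were not well above background on any siRNA-NC array and Cav3 was not on 2 of 3, so these distances rest partly on values at background. By their bounds Chil1 was at least 14.6-fold and Hoxb4 at least 5.29-fold higher with siRNA-MEG3. For Sgcd, Ndc80 (0.0400), a kinetochore gene, and Hdac8 (0.0436), a histone deacetylase, were close, with log2 fold changes of -0.74 and -0.72, neither past the threshold. These likenesses are descriptions over 6 arrays that make up 4 samples.

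The siRNA-NC samples lay farther apart than the siRNA-MEG3 samples. The gap between the 2 siRNA-MEG3 samples was at most 0.17 on the log2 scale over the 10 tested probes, against at most 0.74 between the 2 siRNA-NC samples. The siRNA-NC gap was the larger in 10 of 10 probes and exceeded the difference between groups in 6. These counts have no share over all tested probes beside them and are not read as particular to the members. Over all tested probes the median gap was 0.14 in siRNA-MEG3 and 0.40 in siRNA-NC.

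Markers of muscle differentiation differed along with Cav3. Of 10 listed myoblast and muscle markers, all 10 were measured, 3 rose and 0 fell, beside 1.03% higher over all entries, with 7 estimates positive and 3 negative. Those that rose included Myog, a transcription factor of myoblast differentiation, at 3.46 ± 0.22 (log2 ± SE, limma adjusted p = 0.0232) and the embryonic myosin Myh3 at 7.05 ± 0.54 (limma adjusted p = 0.0254). The lowest of the negative estimates was that of the myoblast factor Myf5, at -2.87, which did not pass the threshold (limma adjusted p = 0.0729). Summed over the 9 markers with a value on all arrays, the scaled level, in multiples of each array's 75th percentile, was 21.7 to 23.0 with siRNA-MEG3 and 2.65 to 2.89 with siRNA-NC. Such a sum follows its brightest probes, with siRNA-MEG3 above all Myh3 (mean scaled log2 level 3.44), and not all listed markers alike. The part of these markers in the Cav3 result was not tested. Among other cell types, none of 5 fibroblast, 2 endothelial, 4 adipocyte, 4 macrophage or 3 smooth muscle markers measured passed the test. Their summed levels with siRNA-MEG3 and siRNA-NC were 155 to 178 against 93.9 to 142 for fibroblast, 0.952 to 1.32 against 0.901 to 0.960 for endothelial, 0.352 to 0.375 against 0.214 to 0.292 for adipocyte, 0.943 to 1.42 against 1.28 to 1.91 for macrophage and 132 to 142 against 97.8 to 161 for smooth muscle markers. The fibroblast sum was mostly Col1a1 (mean scaled log2 level 6.99 with siRNA-MEG3). Dpt, Emcn, Lep and Myh11 were not well above background on any array.

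The wider machinery around the complex mostly did not pass the test. Of 89 related genes in 6 lists, 78 were measured, and 1 was higher (1.28%) and 0 lower, beside 1.03% higher and 0.394% lower over the brightest probes of all 22056 entries. The median log2 fold change was 0.18 for the related genes and 0.06 over all entries, with 53 positive and 25 negative. Without siRNA-MEG3 array 2 there were 4 higher and 1 lower, and without siRNA-NC array 1 or 2 there were 0 higher. The gene that rose was Trim72, which is expressed mainly in striated muscle.

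Trim72, also called MG53, encodes a protein that gathers vesicles at membrane tears and binds caveolin-3. It read 435, 478 and 419 with siRNA-MEG3 and 49.7, 67.5 and 63.5 with siRNA-NC, with no overlap. It rose 10.1-fold, a log2 fold change of 3.33 ± 0.29 (SE, limma adjusted p = 0.0296), and was called in 17 of 21 alternative settings. As for Cav3, these settings reuse the same arrays and are not independent checks. The call was lost without siRNA-NC array 1 (3.23, limma adjusted p = 0.0517) and without siRNA-NC array 2 (3.04), where 1 siRNA-NC sample remains. It was also lost with normexp on all spots (2.87, limma adjusted p = 0.553) and with no filter on dim probes (3.33, limma adjusted p = 0.0759). Trim72 was the 1 of 12 measured sarcolemma repair genes to pass. The list's median was 0.41, or 0.14 without siRNA-NC array 2. With normexp on all spots it was -0.08, where the median of all tested probes was 0.62, and with normexp without the speck spots it was 0.27.

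Among the rest of the dystrophin complex, 9 of 12 genes were measured, none passed and the median was 0.19, or 0.48 without siRNA-MEG3 array 2, 0.34 without siRNA-NC array 2 and 0.89 with normexp on all spots, which moved the median of all tested probes to 0.62. Sntg2, a γ-syntrophin, read 7.93, 12.8 and 5.60 with siRNA-MEG3, not well above background on any of these arrays, and 99.9, 99.1 and 87.7 with siRNA-NC. It was at least 4.49-fold lower with siRNA-MEG3 by its bound and missed the threshold (limma adjusted p = 0.0769). Dtna, which encodes the dystrophin partner α-dystrobrevin, stood at 0.60 ± 0.25 (log2 ± SE, limma adjusted p = 0.309). Sspn, Sntg1 and Nos1 did not pass the filter. Sntg2 at its bound leaves the median of the list as it is.

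None of 18 measured genes of dystroglycan glycosylation passed, with a median of 0.13, or 0.22 without siRNA-NC array 2. The smallest p-values belonged to Dolk, a dolichol kinase, at 0.53 ± 0.21 (log2 ± SE, limma adjusted p = 0.278) and to B4gat1, a glucuronyltransferase of the laminin-binding sugar chain, at 0.50 ± 0.21 (limma adjusted p = 0.309). None of 15 measured laminin and matrix genes passed, with a median of 0.14, or 0.38 without siRNA-MEG3 array 2, 0.24 without siRNA-NC array 3 and 0.034 without siRNA-NC array 2. Lamb3, a laminin chain gene, stood at 1.70 ± 0.37 (limma adjusted p = 0.135) and Itga7, the laminin-binding integrin of muscle, at 0.82 ± 0.21 (limma adjusted p = 0.165). None of 10 measured caveolin and cavin partners passed, with a median of 0.02, or 0.14 without siRNA-MEG3 array 2 and -0.11 without siRNA-NC array 2. Ehd4, a membrane-shaping ATPase, stood at 1.11 ± 0.28 (limma adjusted p = 0.163) with 0.50 on its other probe. Cavin4, the muscle cavin, stood at 0.82 ± 0.21 (limma adjusted p = 0.172). None of 14 measured costamere and cytoskeletal linkers passed, with a median of 0.18. Flnc, a muscle filamin, stood at 0.75 ± 0.22 (limma adjusted p = 0.195) and Vcl, vinculin, at 0.81 ± 0.24 (limma adjusted p = 0.199) with 0.26 on its other probe.

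**Figure D4:**
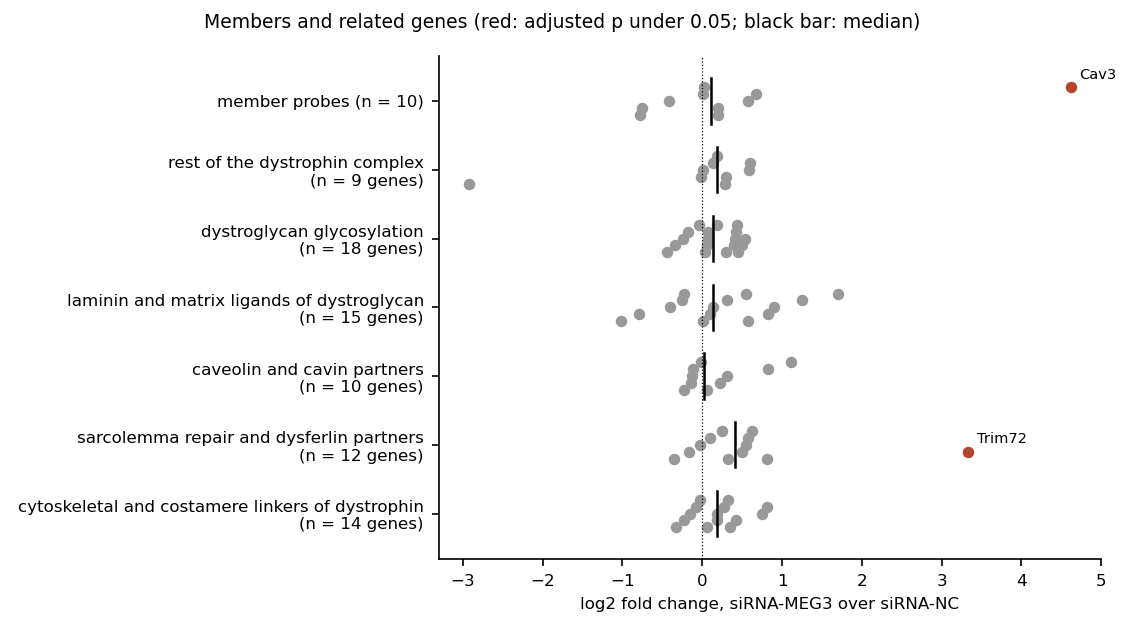
Log2 fold change, siRNA-MEG3 over siRNA-NC, of the 10 tested member probes and of the measured genes of 6 related lists, each point a probe or gene and each black bar a list's median. Red marks an adjusted p under 0.05: Cav3 and Trim72. The far left point is Sntg2 at its fitted value, which lies beyond its bound because it was not well above background with siRNA-MEG3.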

How the data were processed

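RNA from C2C12 cells was read on 6 deposited 1-colour Agilent arrays. The deposited scanner files were written, per the file headers, by Agilent Feature Extraction 11.0.1.1, whose processed signal intensity is corrected for background within its own array. The authors' deposited series table holds log2 values for 30732 probes. Its column medians were all 8.11 and its values followed the log2 processed signal (r = 0.9992 to 0.9997), but no source used here states the between-array step behind it. It was used as an alternative. Per the labels' protocols, the authors averaged replicate probes and derived a scaling factor from mRNAs reaching 30 in all samples.

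Control and outlier-marked spots were dropped, spots of a probe averaged, and log2 processed signal set against each array's 75th percentile over 39429 probes (27234 named through RefSeq accessions in a GRCm38.p6 table). The array design rests on an older assembly, so probe coordinates are not given. Testing required a probe to stand well above background on all 3 arrays of either group and to have a usable spot in each of the 4 samples. Groups were compared with limma 3.58.1 (lmFit and eBayes) in R 4.3.3, 2-sided, with Benjamini-Hochberg adjustment over 26345 probes at 0.05, with 2 residual and 2.31 prior degrees of freedom. The pipeline was tested on simulated data. In gene lists the brightest tested probe stood for a gene. Text names all 8 members, in each list the genes past the threshold or else the 2 of smallest p, and up to 3 genes nearest to Cav3 and Sgcd, the members with the largest rise and largest fall. Some genes are not reported here, and lists and their counts leave them out. Members and lists were chosen with earlier results of these data known. Alternatives covered counting of arrays, background correction, normalization, filters, outlier spots, dark patches, the series table and leaving out each array. Depth on an array is signal over background, and the number of samples limits the precision.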

Additional observations from a re-analysis of the deposited data

How the results depend on the processing

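Cav3 and Trim72 stayed positive under every alternative that gave a value; the smaller member changes did not settle. Counts of probes higher and lower, 263 and 98 as reported, moved most with how arrays were counted. They were 4320 and 2616 with 6 arrays as 6 samples (2 member probes lower, 17 related genes higher and 3 lower), 1307 and 943 with only the rescan averaged (related genes 2 and 1), and 551 and 751 when the siRNA-MEG3 arrays made 1 sample (related genes 2 and 1). Both counts were 0 with normexp on all spots (1079 probes at an unadjusted p of 0.05) and with no filter on dim probes (5273), where 0 members and 0 related genes were higher by limma. Requiring signal on all arrays removed Cav3, leaving 0 members and 2 related genes higher. The lower count was 65 with the labels' scaling factor and 160 without dark patches, where 1 related gene was lower. The median of all probes was 0.05 as reported, 0.62 with normexp on all spots and 0.17 with normexp without speck spots; among calls 72.9% were higher as reported, 58.1% with only the rescan averaged, 42.3% when the siRNA-MEG3 arrays made 1 sample, 62.3% with 6 samples, and 65.5% with normexp without speck spots. Leaving out 1 array at a time gave 0 to 1370 higher and 0 to 1768 lower, 0 to 2 member probes higher, 0 to 4 related genes higher and 0 to 1 lower; a lone sample is then assumed to vary like the other group. Over all alternatives the list medians ran from 0.082 to 0.888 for the rest of the dystrophin complex, 0.0521 to 0.222 for glycosylation, 0.0341 to 0.383 for laminin and matrix, -0.303 to 0.139 for caveolin partners, -0.0835 to 0.488 for repair and 0.104 to 0.427 for linkers. The cause was not tested.

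No reversed value passed the threshold. Cav1 turned to -0.138 with normexp on all spots, -0.0108 with quantile normalization, -0.0314 with the labels' factor, -0.0532 with outlier spots kept and -0.0559 in the authors' series table. With normexp on all spots Sgcd A_55_P2138714 turned to 0.0415 and Sgcb A_55_P2182867 to -0.216. Sgcb A_66_P108345, at 0.01, turned to -0.0401 with 6 samples, -0.0437 with 5 samples, -0.0445 with the labels' factor, -0.368 with normexp on all spots, -0.127 with normexp without speck spots, -0.00498 with quantile normalization, -0.0663 with outlier spots kept, -0.000166 without dark patches and -0.0503 in the series table. Leaving out 1 array at a time, Sgcb A_55_P2182867 ran from -0.0796 without siRNA-NC array 2 to 0.249, and Sgcb A_66_P108345 from -0.153 without siRNA-NC array 2 to 0.0732, with -0.0512 without siRNA-NC array 1.

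Replicate numbers did not pair the arrays (same-number correlations of deviations -0.0384 to -0.0289). With the replicate number as a block, 6 samples gave 2176 higher and 1447 lower, 9 and 2 among related genes, with Sgcb A_66_P108345 at -0.0401; averaged samples gave 189 and 72, with Cav3 still called (limma adjusted p = 0.0225). No scan held both groups, so a fit with slide as a block was not run.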
